A study of Mus musculus with 4 samples.

Results

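Gene expression was compared between cultured epidermal keratinocytes of Casp-8F/–K5-Cre mice (F/- below) and of Casp-8F/+K5-Cre mice (F/+) at the third passage of culture, the late passage. Both genotypes carry a loxP-flanked Casp8 allele (F) and a Cre recombinase driven by the keratin 5 promoter, so the flanked allele can be deleted in basal keratinocytes of either genotype. The other allele is null in F/- and wild type in F/+. The comparison rests on the 2 late passage arrays of the 4 arrays in the series, the other 2 being the early passage, passage 1. Each array carried F/- RNA in Cy3 and F/+ RNA in Cy5, and the arrays of a passage are called pair 1 and pair 2. The series' design text gives 2 mice of each genotype, and the labels give their age as P3.

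The epidermis was split from the dermis with Dispase and dissociated with trypsin, and the cells were cultured without serum, in a keratinocyte medium to which pituitary extract and EGF, the epidermal growth factor, were added. No sorting step is described, so the cultures may hold other cells of the epidermis, in which the keratin 5 promoter is not expected to drive Cre. In such bulk RNA, fewer cells of a type and less RNA per cell cannot be told apart. No array had the dyes exchanged, so within passage 3 the dye and the genotype cannot be told apart, and the arrays are given side by side. A dye effect that is equal on all arrays cancels in the passage 3 ratio minus the passage 1 ratio, which is given where it bears on a result. Title, description and passage entry place both RNAs of the late arrays at passage 3, while the source name of the Cy5 RNA says first passage. The SD over 29853 probes of passage 3 minus passage 1 was 0.63 in Cy5 and 0.66 in Cy3 for pair 1, and 0.79 in Cy5 and 0.71 in Cy3 for pair 2, on the log2 scale. The spread was thus of like size in both channels. Both RNAs of an array are read on the same spots, so these spreads cannot show from which passage the Cy5 RNA came.

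Caspase-8 is the protease that starts apoptosis after death receptors such as Fas and the TNF receptor are engaged. It also holds back necroptosis, a lytic form of death carried out by Ripk3 and Mlkl. In the epidermis, loss of caspase-8 from keratinocytes is known to lead to skin inflammation. Keratinocytes divide in the basal layer, where they make keratins 5 and 14, and stop dividing as they move up and build the cornified barrier.

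All values below are log2 ratios of F/- over F/+ unless an intensity is named. A ratio above 0 is a reading higher in F/-, and mean ± SD is over the 2 arrays (n = 2). The probe with the brightest mean signal stands for a gene. In limma's fit to the 4 arrays, 0 of 35563 probes reached an adjusted p under 0.05 at passage 3 (0.0%, the smallest being 0.079), although 7109 had an unadjusted p under 0.05. For the limma test of the difference between passages the count was also 0 (0.0%, the smallest adjusted p being 0.82), and 2073 probes had an unadjusted p under 0.05. No gene named below therefore passed the test, and the values describe these 2 arrays. The ratios of both arrays correlated across 35522 probes with Pearson's r of 0.55 and Spearman's rho of 0.50, where both arrays share the dye order. Pair 1 was the wider array. Over 29853 probes, those well above background in both channels on both arrays, its ratios had an SD of 0.38 against 0.24 in pair 2. It had 206 genes past 2-fold higher and 388 past 2-fold lower against 41 and 40.

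Casp8 itself is reported first. Its normalised log2 intensity was 13.48 in F/- and 13.01 in F/+ in pair 1, and 13.53 in F/- and 13.74 in F/+ in pair 2. The genotypes overlapped, and the ratios were 0.47 and -0.20. Where the probe lies relative to the deleted part is not stated in the labels or files used here. It is therefore no check on the deletion, and the genotypes are taken from the labels. The Y-linked gene Eif2s3y read -1.28 and -0.27, and nearly the same at passage 1 (-1.27 and -0.29). The other sex-linked genes of the list lay nearer 0 on both arrays: the Y-linked genes Ddx3y, Kdm5d and Uty read 0.01 and -0.26, 0.19 and -0.01, and 0.10 and 0.15, and the X-inactivation gene Xist -0.06 and -0.12. Of the 5 genes 1 read higher and 2 lower on both arrays.

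Genes of cell division read low on both arrays as a group. Progression into mitosis is driven by cyclins A2, B1 and B2 with Cdk1, and the exit from it by the Cdc20-activated anaphase-promoting complex. Promoters of such genes commonly hold CCAAT boxes, bound by the factor NF-Y, and a CHR element, bound by the MuvB complex. The sequences below, from RefSeq on GRCm38.p6, show where such letters lie in 6 mitosis genes with low ratios. All 6 windows hold the CCAAT letters, while the CHR letters are in those of Cdc20 and Cdkn3 and in none of the other 4. The windows were chosen because they hold a motif: those of Birc5 and Sgo1, which also had low ratios, hold neither and are not printed. Each gives the 150 bases before the first listed start of the gene, 5′ to 3′ on the strand of the gene, with CCAAT (or ATTGG) and TTTGAA (or TTCAAA) in capitals.
Ccnb1: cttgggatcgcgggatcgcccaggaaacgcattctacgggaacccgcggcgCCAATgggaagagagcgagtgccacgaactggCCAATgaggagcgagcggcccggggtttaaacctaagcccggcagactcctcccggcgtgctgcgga
Ccnb2: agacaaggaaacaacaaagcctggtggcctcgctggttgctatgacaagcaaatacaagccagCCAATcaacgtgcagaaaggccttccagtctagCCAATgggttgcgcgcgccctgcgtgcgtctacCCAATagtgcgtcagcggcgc
Cdc20: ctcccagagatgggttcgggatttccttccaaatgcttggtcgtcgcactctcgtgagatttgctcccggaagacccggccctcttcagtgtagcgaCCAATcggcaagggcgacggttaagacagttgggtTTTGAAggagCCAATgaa
Bub1: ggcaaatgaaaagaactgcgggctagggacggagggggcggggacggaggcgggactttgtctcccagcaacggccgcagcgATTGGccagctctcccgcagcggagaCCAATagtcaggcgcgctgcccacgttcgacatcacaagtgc
Cdkn3: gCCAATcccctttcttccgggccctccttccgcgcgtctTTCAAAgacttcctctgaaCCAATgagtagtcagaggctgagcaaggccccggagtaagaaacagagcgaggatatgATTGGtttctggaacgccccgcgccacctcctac
Cenpf: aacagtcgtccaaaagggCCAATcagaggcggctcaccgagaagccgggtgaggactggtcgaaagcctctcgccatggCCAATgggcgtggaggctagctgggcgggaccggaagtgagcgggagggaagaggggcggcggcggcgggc

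These windows lie at chr13:100786487-100786636 (minus strand, Ccnb1), chr9:70421555-70421704 (minus, Ccnb2), chr4:118437344-118437493 (minus, Cdc20), chr2:127831860-127832009 (minus, Bub1), chr14:46760391-46760540 (plus, Cdkn3) and chr1:189688087-189688236 (minus, Cenpf). Among the mitosis genes with a listed promoter, 44 of 61 (72.1%) held CCAAT on either strand in the 250 bases before the start, against 34.5% of the 27025 genes in the table and 35.7% of the 14568 that were also measured on the arrays. The CHR letters were found in 22 of 61 (36.1%), against 16.3% of all genes in the table and 12.9% of those measured. In the DNA replication list, 14 of 55 (25.5%) held the E2F letters TTTGGCG or TTTCCCG on either strand, against 4.02% and 5.57%. The CCAAT letters were not particular to the mitosis list, since 33 of these 55 (60.0%) also held them. The CHR letters were in 7 of the 55 (12.7%). A match is a description of letters and not of a bound site.

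Mitosis and spindle genes read lower in F/- on both passage 3 arrays in 65 of 71 cases and higher on both in 0. Over all 23991 genes measured on both arrays, 38.4% read below 0 on both and 27.8% above 0 on both. The median of the list was -0.54 in pair 1 and -0.49 in pair 2, against -0.03 and -0.02 over all genes and -0.04 and -0.04 for the same list at passage 1. A total of 19 of its genes were past 1.5-fold lower on both arrays, where the share over all genes was 0.988%. At an unadjusted limma p under 0.05, 59 read lower and 0 higher, against 9.92% and 9.54% of all genes. The ratio was lower at passage 3 than at passage 1 in 71 of 71 genes, of which 48 had an unadjusted p under 0.05 in the limma test of that difference, against 3.6% of all genes (2.33% in the other direction).

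The lowest member was Cdkn3, a phosphatase that acts on cyclin-dependent kinases. Its log2 intensity was 10.43 in F/- and 11.96 in F/+ in pair 1, and 10.98 and 11.74 in pair 2. Both F/- values lay below both F/+ values, and the ratios were -1.53 and -0.76. The S and G2 phase cyclin gene Ccna2 stood at 11.52 in F/- and 12.72 in F/+ in pair 1 and at 11.46 and 12.29 in pair 2. Its ratios of -1.21 and -0.84, against -0.14 and -0.39 at passage 1, gave a difference between passages of -0.76 ± 0.18 (SE from limma). The mitotic cyclin genes Ccnb1 and Ccnb2 read -0.83 ± 0.08 and -0.91 ± 0.21, and the other 2 kept probes of Ccnb1 also read low, at -0.63 and -0.78.

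Genes of later mitotic steps also read low. Cdc20, the activator of the anaphase-promoting complex, read -0.96 ± 0.43, Birc5, which encodes survivin of the chromosomal passenger complex, -0.99 ± 0.39, and the spindle checkpoint kinase gene Bub1 -0.82 on each array. Sgo1, which protects centromeric cohesion, read -0.92 ± 0.13 and the kinetochore gene Cenpf -0.95 ± 0.15, though a second Cenpf probe read -0.21. Adjusted limma p-values of the genes named here lay between 0.079 and 0.089 and each read lower on 2 of 2 arrays. Some members lay nearer 0: Cdk1 read -0.05 and -0.41, and the topoisomerase gene Top2a -0.09 and -0.32, after 0.37 and 0.14 at passage 1. A second Cdk1 probe read 0.05. The proliferation marker Mki67 read -0.41 and -0.68.

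DNA replication and S phase genes read lower on both arrays in 59 of 69 cases and higher on both in 1. Their medians were -0.50 and -0.41, after 0.07 and -0.01 at passage 1, and 10 genes were past 1.5-fold lower on both arrays. At an unadjusted limma p under 0.05, 50 read lower and 0 higher, against 9.92% and 9.54% of all genes. The ratio was lower at passage 3 than at passage 1 in 66 of 69 genes and higher in 3. In the limma test of that difference, 41 were lower and 0 higher at an unadjusted p under 0.05, against 3.6% and 2.33% of all genes. The exonuclease gene Exo1 read -1.04 ± 0.22, the clamp loader gene Rfc4 -0.97 ± 0.32 and the polymerase alpha gene Pola1 -1.11 ± 0.46. Of the helicase genes, Mcm5 read -0.67 and -0.54 after 0.49 and -0.07 at passage 1, and Mcm2 -0.50 and -0.11. The sliding clamp gene Pcna read -0.61 and -0.33. The lamin gene Lmnb1 was the lowest of the list at -1.70 and -0.99, but it also read -0.89 and -2.79 at passage 1. Over the settings that give both passages, the median difference between passages ranged from -0.52 to -0.46 for mitosis genes and from -0.49 to -0.39 for S phase genes.

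**Figure D1:**
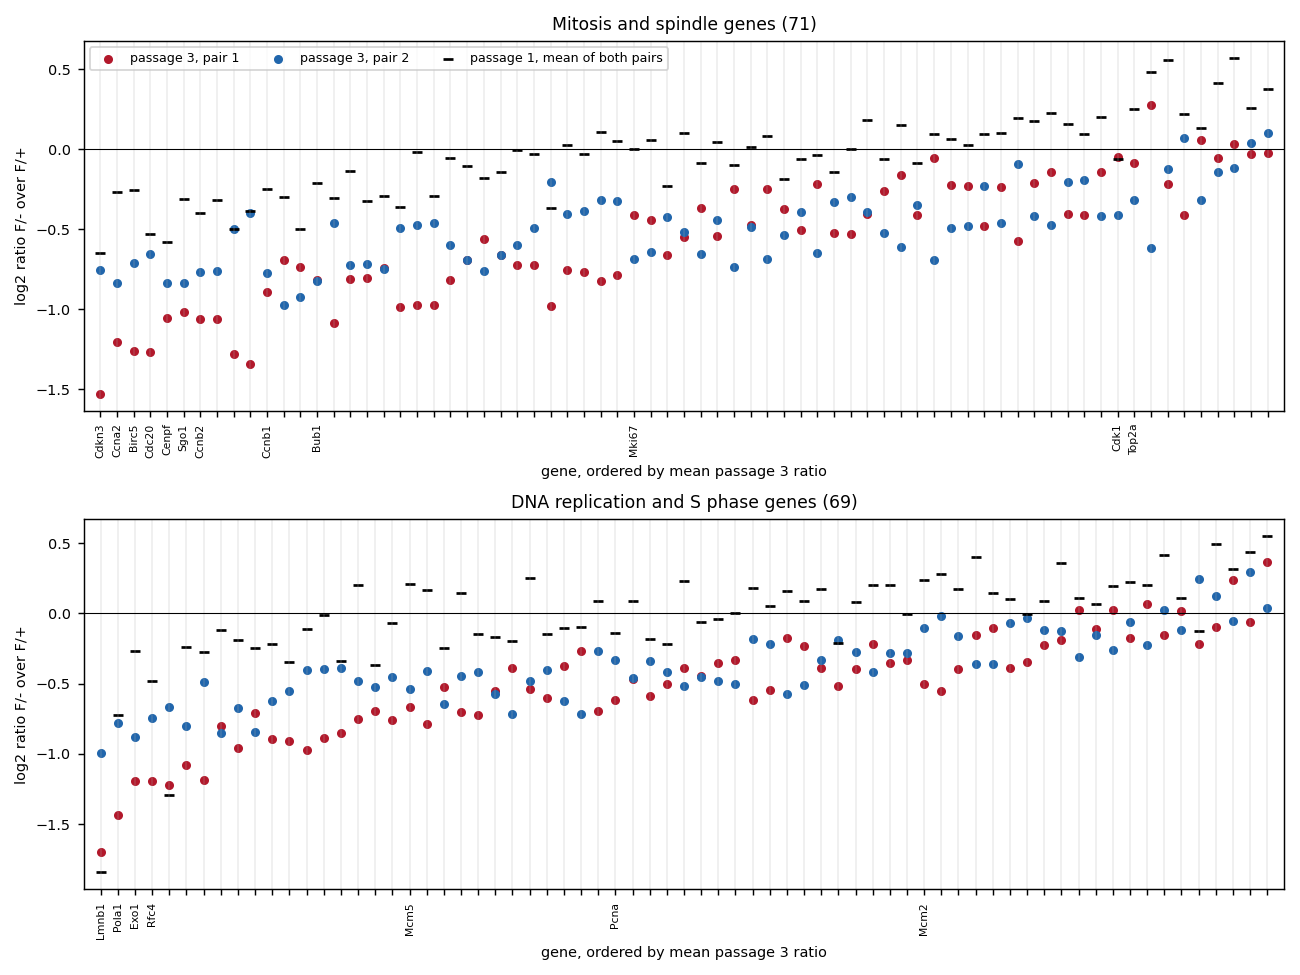
Log2 ratio of F/- over F/+ (vertical axis) for each of 71 mitosis genes and 69 S phase genes (horizontal axis, ordered by mean passage 3 ratio, with names for genes described in the text). Red and blue points are the passage 3 arrays of pairs 1 and 2, and black dashes the mean of both passage 1 arrays. Points of both pairs lie below 0 for 65 and 59 genes, and most dashes lie above them.

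Inhibitors of the cycle gave no common direction. Of 43 Cdk inhibitor, p53 target and senescence genes, 14 read higher and 12 lower on both arrays, with a median of 0.03 on each. The median of their mean ratios was -0.00036 and went to -0.36 with median centring in place of loess. Cdkn1a, which encodes p21, read 0.07 and 0.30, Cdkn2a, which encodes p16 and p19Arf, 0.34 and -0.18, and Cdkn1b, which encodes p27, -0.84 and -0.35. Other Cdkn1b probes read between -0.22 and 0.06. The p53 ubiquitin ligase gene Mdm2 read 0.59 and 0.41.

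The genes past 2-fold on both passage 3 arrays numbered 20 higher (0.0834% of genes) and 24 lower (0.1%), or 31 and 27 in probes, with 1 probe past 2-fold in opposite directions. These counts depend on the dye normalization and background, as given in the closing section. The highest 15 had mean ratios that correspond to 2.32-fold to 5.46-fold, and the lowest 15 to 2.39-fold to 3.77-fold. In each of these 30 genes both F/- intensities lay on one side of both F/+ intensities. The genes were picked on the ratios of these same intensities, and the share over all genes was not counted, so this is no further evidence. Pair 1 had the larger ratio in 14 of the 15 highest and in 14 of the 15 lowest. Adjusted limma p-values lay between 0.079 and 0.18 for the highest and between 0.079 and 0.12 for the lowest.

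**Figure D2:**
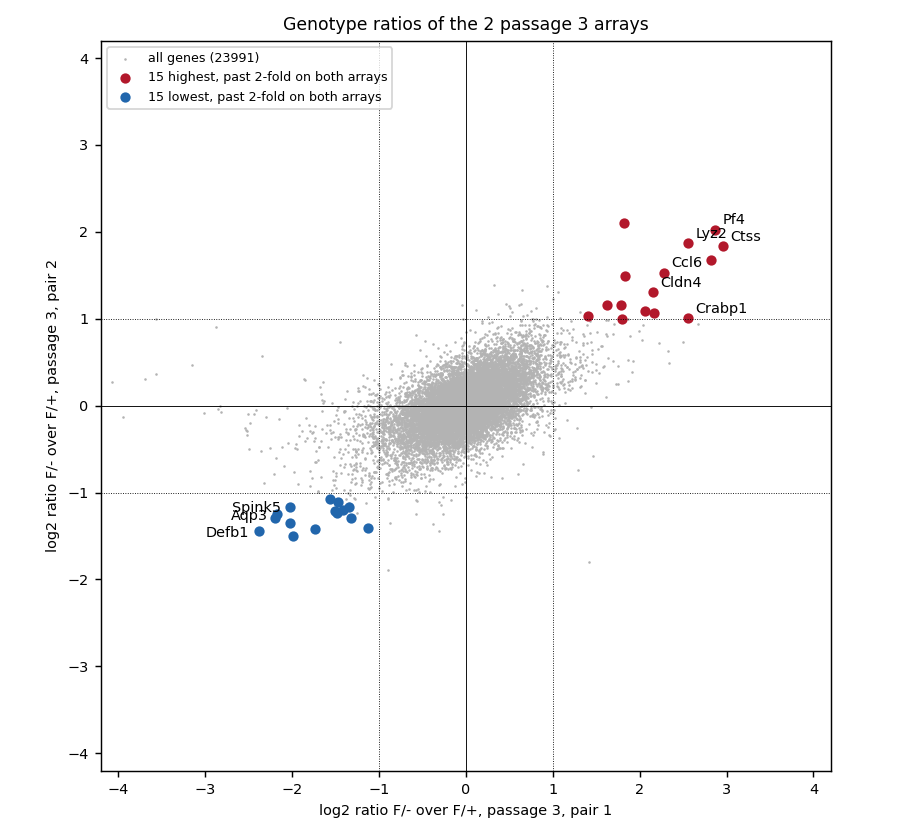
Log2 ratio of F/- over F/+ on the passage 3 array of pair 1 (horizontal) and of pair 2 (vertical) for 23991 genes, with dotted lines at 2-fold. Red points are the 15 highest and blue points the 15 lowest genes past 2-fold on both arrays. Ratios spread more in pair 1 (SD 0.38) than in pair 2 (0.24), with both SDs taken over 29853 probes and not over the plotted genes.

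Of the 15 highest genes, 7 are known from macrophages: Pf4, Ctss, Lyz1, Lyz2, Ccl6, Marco and C1qa. Pf4, a platelet and macrophage chemokine gene, had a log2 intensity of 9.52 in F/- and 6.65 in F/+ in pair 1, and of 8.83 and 6.8 in pair 2. Ctss, which encodes the antigen-processing protease cathepsin S, stood at 10.68 and 7.73 in pair 1 and at 10.09 and 8.25 in pair 2. Lyz2, which encodes the lysozyme of myeloid cells, stood at 13.22 and 10.67 in pair 1 and at 12.47 and 10.60 in pair 2. All 3 genes were high in both F/- samples and low in both F/+ samples, with ratios of 2.87 and 2.03 for Pf4, 2.96 and 1.84 for Ctss and 2.56 and 1.87 for Lyz2. A second Lyz2 probe read 0.67, and Lyz1 (2.25 ± 0.81) is a near-identical copy whose signal may be shared. At passage 1 they already read higher in F/- in pair 1, with 1.14 for Pf4, 0.95 for Ctss, 0.56 for Lyz2 and 0.81 for Lyz1, though by less than at passage 3. In pair 2 the passage 1 ratios were -0.05 for Pf4, -0.40 for Ctss, 0.10 for Lyz2 and 0.30 for Lyz1. The difference between passages was 1.90 ± 0.48 (SE) for Pf4, 2.12 ± 0.57 for Ctss and 1.88 ± 0.28 for Lyz2.

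The chemokine gene Ccl6, the scavenger receptor gene Marco and the complement gene C1qa had high ratios at passage 1 as well. Ccl6 read 2.28 and 1.53 at passage 3 after 2.20 and 1.76, and Marco 1.83 and 1.49 after 1.25 and 1.47. C1qa read 1.40 and 1.03 after 1.49 and 0.32. The ratio moved most between passages for C1qa in pair 2 and for Marco in pair 1, in both cases upward.

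Over the whole list of macrophage markers, 30 of 34 genes read higher in F/- on both passage 3 arrays and 1 lower. The medians were 0.67 and 0.40, after 0.94 and 0.17 at passage 1. A total of 14 were past 1.5-fold on both arrays, where 1.08% of all genes were, and 7 past 2-fold. The summed intensity of the 34 genes was 23960 in F/- and 7759 in F/+ in pair 1, and 16300 and 7665 in pair 2. Of the 7 defining markers, all were well above background in both channels of both arrays. They did not move evenly: Adgre1, which encodes a surface receptor used to define macrophages, read 0.98 ± 0.33, the M-CSF receptor gene Csf1r 0.54 ± 0.20 and Cd14 0.50 ± 0.06. Cd68 read -0.24 and 0.09, and Aif1, which encodes Iba1, 0.11 and 0.03. Second probes of Adgre1 and Csf1r stood near 0, at 0.12 and between -0.04 and 0.28. The median of the mean ratios over the list was 0.52 with the background offset of 50, 1.04 with an offset of 0 and 1.41 with the scanner's log ratios.

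Lysosomal genes, which macrophages share with keratinocytes, read higher on both arrays in 12 of 21 cases and lower in 3, though their median, 0.12, turned to -0.24 under median centring in place of loess. The prosaposin gene Psap read 0.82 and 0.39, and Ctsd, which encodes cathepsin D, 0.11 and 0.45. Langerhans and T cell markers read lower on both arrays in 8 of 16 cases and higher in 3. At an unadjusted limma p under 0.05, 2 read higher and 0 lower, against 9.54% and 9.92% of all genes. The 3 defining genes did not share a direction. Cd207, the langerin gene, read -0.21 and -0.08, and the T cell receptor complex gene Cd3e -0.09 and -0.24. Epcam, a surface protein gene and also a defining gene of the list, read 0.85 and 0.30. The surface protein genes Thy1, which is also a fibroblast marker, and Cd52 read above 0, at 1.5 and 0.41, and 0.60 and 0.18. Of 13 endothelial and pericyte markers 5 read higher and 4 lower on both arrays. At an unadjusted limma p under 0.05, 2 of these markers read higher and 0 lower, beside the same shares of all genes. Their defining genes Pecam1, Cdh5 and Kdr read between -0.09 and 0.14. In each channel Cdh5 was well above background on only 1 passage 3 array. The pericyte gene Cspg4 read 1.10 and 0.26, the junction gene Esam 0.76 and 0.59 and the endoglin gene Eng 0.67 and 0.29.

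**Figure D3:**
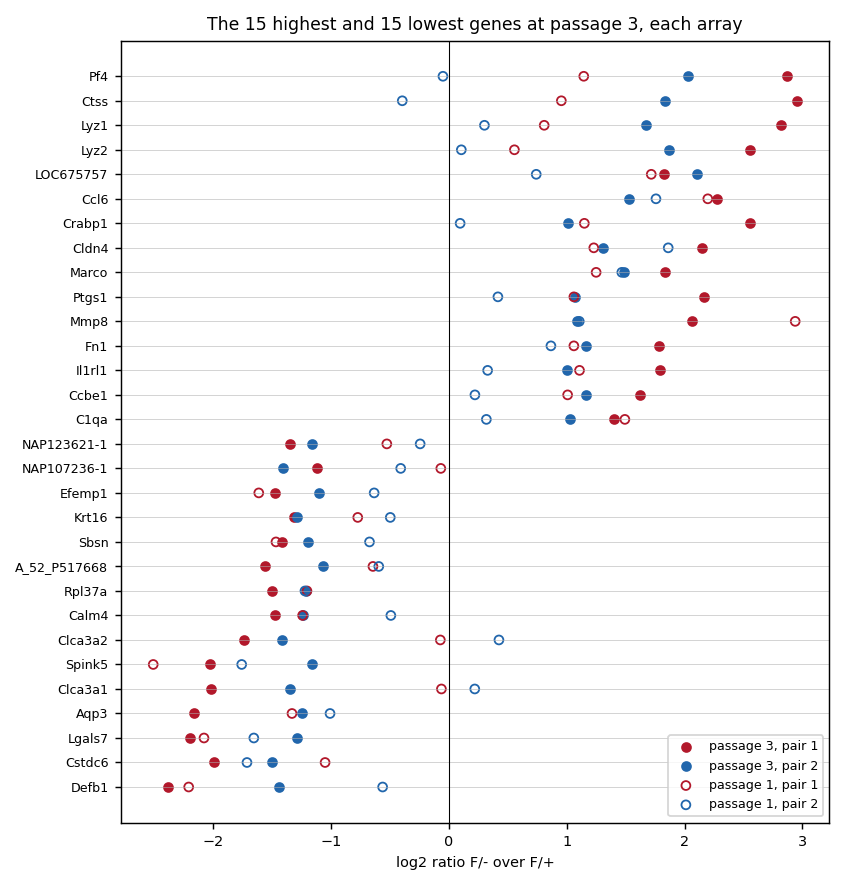
Log2 ratio of F/- over F/+ (horizontal) for the 15 highest and the 15 lowest genes at passage 3 (vertical). Filled points are passage 3 and open points passage 1, red for pair 1 and blue for pair 2. The macrophage genes Pf4, Ctss, Lyz1 and Lyz2 and the chloride channel regulator genes Clca3a1 and Clca3a2 show open points nearer to 0 than filled ones.

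The other high genes had epithelial, matrix or unassigned roles. Cldn4, which encodes a tight junction claudin, had a log2 intensity of 16.08 in F/- and 13.93 in F/+ in pair 1 and of 14.84 and 13.54 in pair 2. Its ratios were 2.15 and 1.31, after 1.23 and 1.86 at passage 1. The retinoic acid binding gene Crabp1 read 2.56 and 1.01, the cyclooxygenase gene Ptgs1 2.17 and 1.07, the neutrophil collagenase gene Mmp8 2.06 and 1.08, and Ccbe1, a matrix gene of lymphatic growth, 1.62 and 1.16. Fn1, which encodes fibronectin, read 1.78 and 1.16, and Il1rl1, which encodes the interleukin-33 receptor, 1.79 and 1.00. Other kept probes of Fn1 (from 0.19 to 1.52), Il1rl1 (from 0.34 to 0.59) and Ccbe1 (from -0.02 to 1.26) were not all as high. LOC675757, a gene model with no assigned role here, read 1.82 and 2.10. Il33 itself read lower, at -1.34 and -0.97.

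Fibroblast markers read higher on both arrays in 25 of 30 cases and lower in 2, with a median of 1.24 in pair 1 and 0.31 in pair 2. The size of this group thus rests largely on pair 1, and without that array its median was 0.31 in place of 0.77. At passage 1 the medians were 0.51 and 0.04. The summed intensity of the list was 83330 in F/- and 34160 in F/+ in pair 1, and 54380 and 42850 in pair 2. All 5 defining markers were well above background in both channels. Col1a1 read 2.32 and 0.63 and Col1a2 1.64 and 0.54, both encoding chains of type I collagen, but other probes of Col1a1 ranged from -0.04 to 0.93 and that of Col1a2 stood at -0.16. The platelet-derived growth factor receptor gene Pdgfra read 1.22 and 0.31, and Dcn, which encodes decorin, 0.08 and 0.31. Col3a1 read 0.37 and 0.28 after -0.27 and -0.21 at passage 1.

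**Figure D4:**
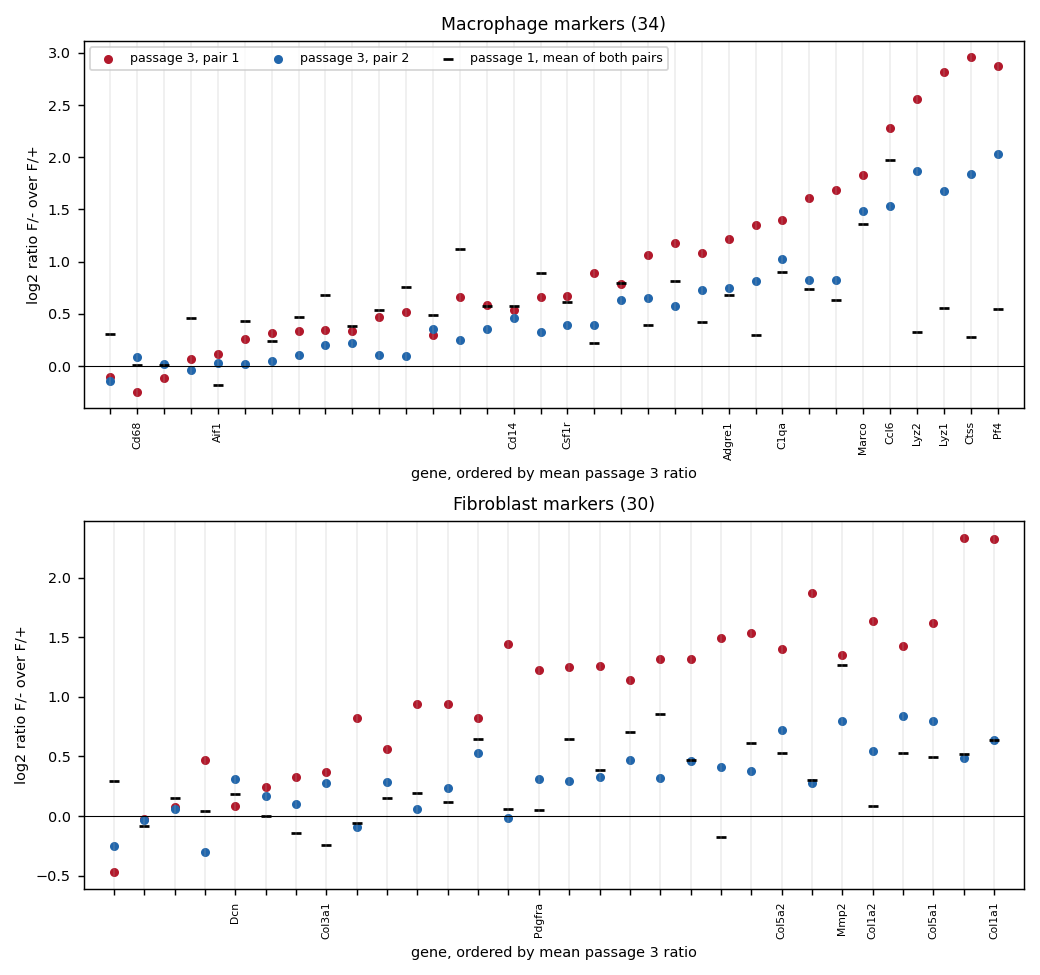
Log2 ratio of F/- over F/+ (vertical) for each of 34 macrophage markers and 30 fibroblast markers (horizontal, ordered by mean passage 3 ratio, with names for genes described in the text). Red and blue points are the passage 3 arrays of pairs 1 and 2, and black dashes the mean of both passage 1 arrays. For fibroblast markers most red points lie far above the blue ones, with medians of 1.24 and 0.31.

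Collagen and matrix protease genes read higher more often than lower. Of 37 collagen genes 26 read higher and 7 lower on both arrays (medians 0.47 and 0.16), and of 37 matrix proteases and inhibitors 23 read higher and 6 lower (medians 0.18 and 0.19). The fibronectin and matricellular list had 16 of 31 higher and 4 lower (medians 0.47 and 0.06). Type V collagen genes Col5a1 and Col5a2 read 1.21 ± 0.58 and 1.06 ± 0.48, while Col17a1, the hemidesmosomal collagen of basal keratinocytes, read -0.70 and -0.61. A second Col5a1 probe read 0.002. The collagenase gene Mmp13 read 2.50 and 0.73 and the gelatinase genes Mmp9 and Mmp2 1.20 ± 0.32 and 1.08 ± 0.39. The osteopontin gene Spp1 read 1.09 and 0.73 after -0.33 and -0.16 at passage 1.

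Of 31 mesenchymal and contractile genes, 17 read higher and 8 lower on both arrays, with a median of 0.23 that turned to -0.14 under median centring. Vim, which encodes vimentin, read 2.03 and 0.76, the actin-binding cortactin gene Cttn 1.40 and 0.93, Tagln, which encodes transgelin, 0.69 and 0.81, and the smooth muscle actin gene Acta2 0.73 and 0.20. Other Acta2 probes read between -0.30 and 0.14. The repressor genes Snai1 and Zeb2, which act in epithelial to mesenchymal transition, read 1.27 and 0.56, and 0.92 and 0.64. Other Zeb2 probes read between 0.00 and 0.22. The epithelial cadherin gene Cdh1 read 0.33 and 0.26, so it was not lower.

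Growth factor genes split by member. The TGF-beta pathway list had 15 of 32 higher and 8 lower on both arrays, with a median (0.14) that turned to -0.01 under median centring. Its ligand genes read 0.57 and -0.30 for Tgfb1, 0.22 and 0.36 for Tgfb2, and 0.80 and 0.72 for Tgfb3. The signal transducer gene Smad3 read 0.70 and 0.64, and Fst, which encodes the activin inhibitor follistatin, -1.27 and -1.07. Among EGF receptor ligands, Hbegf read 0.45 and 0.58, Tgfa 1.19 and 0.24, Areg -0.13 and 0.57 and Epgn, the epigen gene, -0.99 and -0.89. The angiogenic ligand genes Vegfc and Pdgfb read 2.04 and 0.93, and 1.62 and 0.98.

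The 15 lowest genes held a defensin, keratinocyte proteins, a water channel and chloride channel regulators beside genes of other roles. As a group, 31 channel, chloride transport and tight junction genes had no common direction, with 13 higher and 13 lower on both arrays. Defb1, which encodes a beta-defensin, had a log2 intensity of 8.11 in F/- and 10.49 in F/+ in pair 1 and of 9.16 and 10.61 in pair 2. Lgals7, the gene of the keratinocyte galectin 7, stood at 11.20 and 13.40 in pair 1 and at 12.13 and 13.41 in pair 2. Aqp3, which encodes the water and glycerol channel of the epidermis, stood at 8.55 and 10.72 in pair 1 and at 9.28 and 10.53 in pair 2. All 3 genes were low in both F/- samples, with ratios of -2.39 and -1.44, -2.20 and -1.29, and -2.17 and -1.25. They were also low at passage 1, at -2.21 and -0.56, -2.08 and -1.66, and -1.33 and -1.01.

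Most other low genes repeated the sign of passage 1. The cystatin gene Cstdc6 read -2.0 and -1.51, with other probes at -1.90 and -1.99, and Spink5, the gene of the epidermal protease inhibitor LEKTI, -2.02 and -1.16. The calmodulin-like gene Calm4 read -1.48 and -1.24, and the secreted epidermal peptide gene Sbsn -1.31 ± 0.15, though its second probe stood at -0.11. Dmkn, also a secreted epidermal peptide gene but not among the 15 lowest, read -1.23 ± 0.22, with a second probe at -0.24. Efemp1, a fibulin gene, read -1.48 and -1.11, and Krt16, a keratin of wounded and dividing epidermis, -1.32 and -1.29. The exceptions were Clca3a1 and Clca3a2, calcium-activated chloride channel regulator genes with like sequences, at -1.69 ± 0.48 and -1.58 ± 0.23. They had read -0.06 and 0.22, and -0.07 and 0.42, at passage 1, so that their difference between passages was -1.76 ± 0.26 and -1.76 ± 0.22 (SE). The ribosomal gene Rpl37a, at -1.36 ± 0.20, and 3 probes with no gene name completed the 15 lowest.

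Genes of the cornified envelope, the protein shell of dead surface cells, read lower on both arrays in 25 of 39 cases and higher in 5, with medians of -0.21 and -0.12 after -0.71 and -0.28 at passage 1. Past 1.5-fold on both arrays, 5 were lower and 3 higher. The ratio was higher at passage 3 than at passage 1 in 26 of 40 genes and lower in 14. In the limma test of that difference, 13 were higher and 3 lower at an unadjusted p under 0.05, against 2.33% and 3.6% of all genes. The small proline-rich genes Sprr1a, Sprr2d and Sprr2h read -1.98 and -0.77, -1.94 and -0.90, and -1.36 and -0.79. The members of this family are alike in sequence, so their signals may be shared. Tgm1, which encodes the crosslinking transglutaminase, read -1.04 and -0.46, and the involucrin gene Ivl 0.07 and 0.43. The highest member, Lce1g, read 0.93 and 1.02, though its second probe stood at -0.05. Lor, the loricrin gene, read -0.43 and 0.20 after -1.66 and -1.47 at passage 1, a difference of 1.45 ± 0.24 (SE). Flg, the filaggrin gene, read -0.36 and -0.34 but was not well above background in Cy3 on either passage 3 array. The limma SE of its mean ratio was 0.52, and at passage 1 it read -2.29 and -0.03.

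Keratin genes did not share a direction. The basal keratin genes Krt5 and Krt14 had log2 intensities between 16.57 and 17.87, and read -0.85 and -0.73, and -0.90 and -0.80. Trp63, the gene of the basal transcription factor p63, read -0.13 and -0.25, and the integrin genes Itga6 and Itgb4 0.24 and 0.08, and 0.13 and -0.11. Other Itga6 probes read between -0.39 and 0.37. All 5 defining genes were well above background in both genotypes, while over the 24 basal genes 11 read higher and 9 lower. The median of these genes, 0.04, turned to -0.38 under median centring. The suprabasal keratin genes Krt1 and Krt10 read -0.13 and -0.12, and -1.54 and 0.03. Of the stress keratins, Krt17 read -0.79 and -0.53, Krt6a 0.10 and -0.23 and Krt6b 0.44 and 0.05. Among alarmins, S100a8 read 0.19 and 0.95 and its partner S100a9 -1.69 and -0.48, so these partners read apart.

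**Figure D5:**
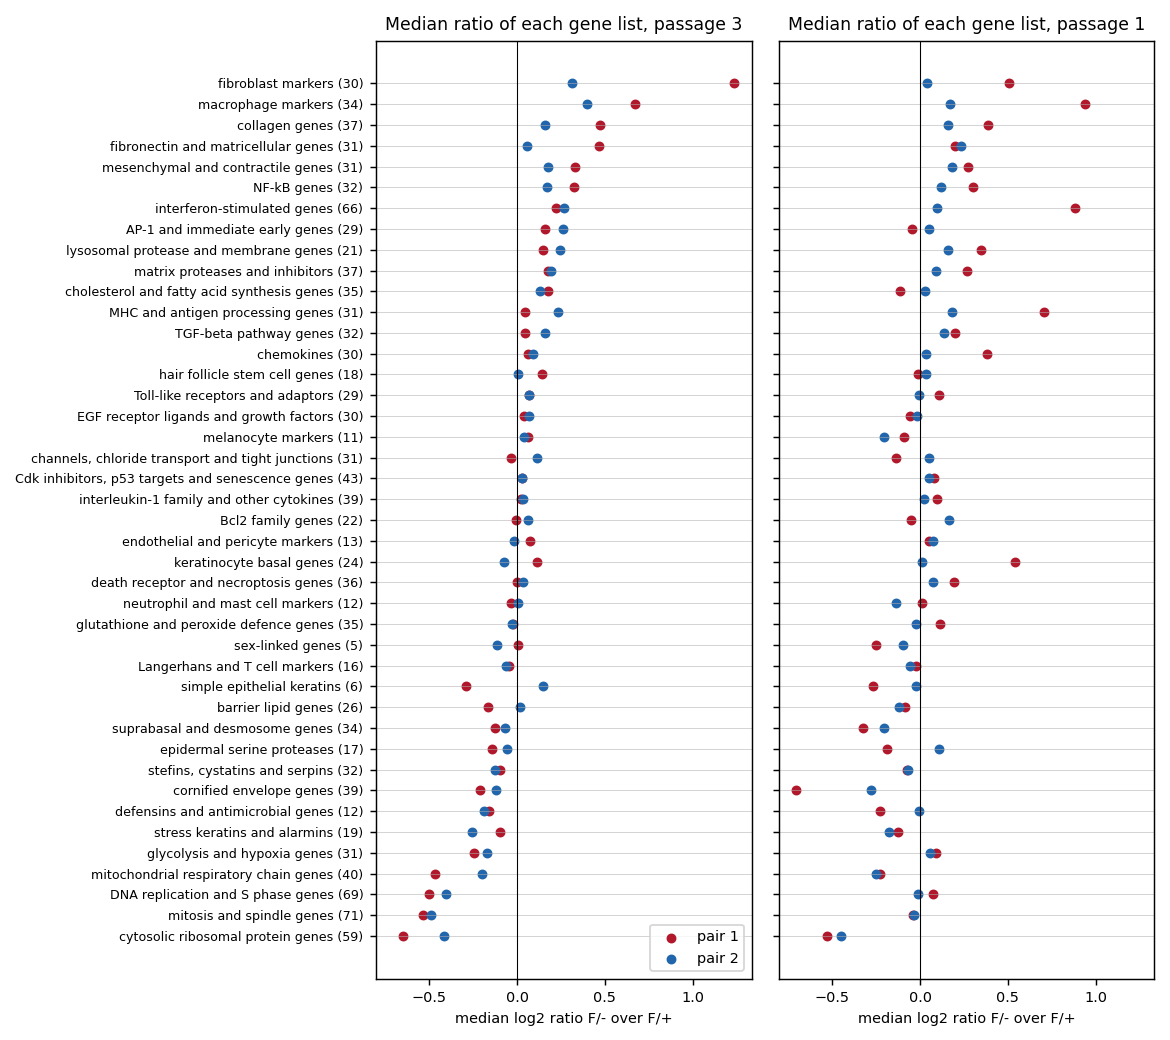
Median log2 ratio of F/- over F/+ (horizontal) of each of 42 gene lists, with the number of genes measured in brackets, at passage 3 (left) and passage 1 (right). Red points are pair 1 and blue points pair 2. The mitosis and S phase lists lie near -0.5 at passage 3 and near 0 at passage 1, while ribosomal genes lie near -0.5 at both.

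The normalization set the size of several list medians. With median centring in place of loess, the median of the mean ratios went from -0.58 to -1.21 for ribosomal, from -0.34 to -0.85 for respiratory chain, from -0.21 to -0.59 for glycolysis, from -0.45 to -0.71 for S phase and from -0.17 to -0.27 for cornified envelope genes. It went from 0.25 to 0.07 for interferon-stimulated, from 0.26 to 0.03 for fibronectin and matricellular, from 0.32 to 0.13 for collagen, from 0.24 to 0.07 for matrix protease and from 0.23 to 0.13 for NF-kB genes. None of these 10 medians changed sign. For mitosis genes the median of the mean ratios went from -0.53 to -0.73.

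NF-kB genes read higher on both arrays in 20 of 32 cases and lower in 3 (medians 0.32 and 0.17). The feedback inhibitor genes Tnfaip3, which encodes A20, and Tnip1 read 1.11 and 0.59, and 0.81 and 0.57. Nfkb2 read 0.68 and 0.61 and Relb 0.48 and 0.55, both of the noncanonical pathway, while Nfkb1 read -0.33 and -0.25 and Nfkbia 0.20 and 0.09. Other Nfkb1 probes read between -0.20 and 0.18. Tnf read 0.90 and 0.51 and Vcam1, an adhesion gene under NF-kB control, 1.89 and 0.80.

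Interferon-stimulated genes read higher on both arrays in 46 of 66 cases and lower in 7, with medians of 0.22 and 0.27. Only 8 read higher and 1 lower at an unadjusted limma p under 0.05, against 9.54% and 9.92% of all genes. At passage 1 the same list had medians of 0.88 and 0.09, so pair 1 stood nearer to pair 2 at passage 3. The ubiquitin-like modifier gene Isg15 read 0.65 and 1.33, its protease gene Usp18 1.01 and 1.23, and the regulator gene Irf7 0.78 and 1.00. At passage 1 these genes had read 2.70 and 0.18, 2.89 and 0.27, and 2.37 and 0.67. Ifit1 read 0.18 and 0.16, and Ifit3 -0.28 and 0.07. The chemokine gene Cxcl10 read -0.01 and 0.09 after 2.35 and 0.94. Class I antigen presentation genes H2-D1 and Tapbp read 0.60 and 0.68, and 0.61 and 0.66, while the list of 31 such genes had 16 higher and 8 lower and a median (0.22) that turned to -0.05 under median centring. A second H2-D1 probe read -0.04.

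Genes that act with caspase-8 had no common direction. Of 36 death receptor and necroptosis genes, 13 read higher and 11 lower on both arrays and 0 were past 1.5-fold on both, where 1.08% of all genes were past it higher and 0.988% lower. The adaptor gene Fadd read -0.01 and -0.11, the kinase genes Ripk1 and Ripk3 0.26 and 0.03, and -0.26 and -0.30, and the pore-forming effector gene Mlkl -0.09 and -0.21. Cflar, which encodes the caspase-8 partner c-FLIP, read 0.25 and 0.53, with other probes between -0.04 and 0.34. The members farthest from 0 included Zbp1, a nucleic acid sensor gene of necroptosis, at 0.77 and 0.49, and the ligand gene Tnf at 0.90 and 0.51. Fas read -0.12 and -0.93 after 0.29 and 0.24 at passage 1. In the Bcl2 family, the survival gene Bcl2a1b read 1.82 and 0.97, and Mcl1 -0.05 and 0.07.

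Among cytokines, Il1f5, an antagonist of the interleukin-36 receptor, read -1.19 and -0.85, Il18 -1.03 and -0.64, and Csf1, which encodes the macrophage growth factor M-CSF, 1.45 and 0.39. Of the chemokines, Ccl7 read 1.45 and 0.60, Ccl2 0.70 and 0.17 and Ccl20 -1.84 and -0.14. Cxcl1 read -0.94 and -0.23 after 0.39 and 0.47 at passage 1. Of 30 chemokine genes 14 read higher and 6 lower on both arrays.

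Metabolic genes differed by pathway. Glycolysis and hypoxia genes read lower on both arrays in 17 of 31 cases and higher in 5, with medians of -0.24 and -0.17 after 0.09 and 0.06 at passage 1. The lactate exporter gene Slc16a3 read -0.73 and -0.82 after 0.84 and 0.53, a difference between passages of -1.46 ± 0.15 (SE). The lactate dehydrogenase gene Ldha read -1.31 and -0.59, the glucose transporter gene Slc2a1 -0.92 and -0.39 and Pdk1, which encodes a brake on pyruvate oxidation, -0.92 and -0.79. A second Ldha probe read -0.09. Cholesterol and fatty acid synthesis genes read higher on both arrays in 21 of 35 cases and lower in 9, with a median (0.15) that turned to -0.23 under median centring. Insig1, a sterol feedback gene, read 0.80 and 1.12 after -0.34 and -0.01, and Cyp51, an enzyme of the pathway, 0.74 and 0.62. A second Insig1 probe read 0.09 and other Cyp51 probes between -0.15 and 0.59.

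Ribosomal and respiratory chain genes read lower at both passages. Of 59 cytosolic ribosomal protein genes 52 read lower and 3 higher on both passage 3 arrays, with medians of -0.65 and -0.42 after -0.53 and -0.45 at passage 1. Of 40 respiratory chain genes 30 read lower and 3 higher, with medians of -0.47 and -0.20 after -0.23 and -0.25. Their ratios did not pass the difference test between passages. In each list 1 gene had a lower ratio at passage 3 at an unadjusted limma p under 0.05, against 3.6% of all genes. Rps7 and Rps18 read -1.67 and -0.82, and -1.70 and -0.62, while Rps6 read 0.03 and 0.08. Cox7b, a subunit of complex IV, read -1.11 and -0.90, and Sdha, of complex II, 0.38 and 0.31. The respiratory chain median was further below 0 at passage 3 than at passage 1 in pair 1, and the part of the dye in both lists was not tested.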

How the data were processed

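The submitters' processing notes name Agilent Feature Extraction 9.1.3.1 for the 4 two-colour arrays, which shared 1 slide. The deposited scanner files hold, per the file headers, raw intensity and median background per channel and a log10 ratio of Cy5 over Cy3 of processed signals. The authors' deposited value table holds the same log10 ratio with the sign turned, Cy3 over Cy5.

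From the deposited intensity values, 43379 gene spots were background-corrected with normexp (offset 50) and normalized by loess within each array in limma 3.58.1 (R 4.3.3), with outlier spots at weight 0, and turned into log2 ratios of Cy3 over Cy5. Intensities per channel are after loess and Aquantile normalization. Spots of a probe were averaged. Of 41174 probes, 35563 were kept, those with a missing value on no more than 1 array that rose well above background in either channel on 2 arrays or more. No spot was saturated, and the share of gene spots well above background ranged from 75.8% to 83.9% on the late arrays. The number of arrays limits the precision. Names came from the accession (21692 probes), the symbol (5445) or an older symbol (2592) through a RefSeq gene table of GRCm38.p6, and 5834 kept the file's name. A gene is read by its brightest kept probe. Where another kept probe of a gene is not given, it may still have read otherwise.

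Passage 3 ratios and passage 3 minus passage 1 were tested two-sided in 1 limma fit of 4 arrays, with Benjamini-Hochberg adjustment over all kept probes, and the fit was tested on simulated data. The same mice were sampled at both passages, so pair numbers pair the arrays, although the correlation between passages of their deviations from the mean of the passage was -0.00047. Named genes are the 15 highest and 15 lowest past 2-fold on both arrays, the key members and up to 6 largest same-sign ratios of each list, Casp8, sex-linked genes and the 5 largest passage differences in each direction. Further genes are not named, and some that the rule gives are not reported here. The members, the 42 lists (1298 of 1353 entries measured) and the named genes' rule were chosen with earlier results of these data known, so no list was tested. Alternatives were the background, the normalization, the scanner's ratios, the filter on dim probes, the mean of all probes, the replicate block, the late arrays alone and leaving out each array. The p-values measure the spread between these arrays.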

Additional observations from a re-analysis of the deposited data

Results flagged for a closer look

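The genes and lists below read on one side of 0 on both passage 1 arrays and on the other on both passage 3 arrays. The values are passage 3 minus passage 1 in the log2 ratio of F/- over F/+. For single genes the limma test of that difference was not passed (adjusted p between 0.82 and 0.95), and for lists the difference was not tested.

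Of cell division, keratinocyte and follicle genes, Mcm2 stood at -0.54, Top2a at -0.46, Trp63 at -0.47, the follicle stem cell receptor gene Lgr6 at 0.84, and the keratin genes Krt19 and Krt20 at -0.72 and 1.14. The epidermal protease gene Klk10 stood at -0.80. Among matrix and contractile genes, Col3a1 stood at 0.56, Spp1 at 1.15, Tagln at 0.84 and the receptor gene Tgfbr2 at 0.14. The sterol genes Insig1 and Srebf2 stood at 1.14 and 0.25, and the lactate exporter gene Slc16a3 at -1.46.

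Of immune and death genes, Cxcl1 stood at -1.02, Fas at -0.79 and the class II gene H2-Ab1 at -0.69. Lamp1, a lysosomal membrane gene, stood at -0.076, the melanin synthesis gene Dct at 0.34 and the Y-linked gene Uty at 0.22. The transcription factor gene Egr2 stood at 1.98.

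Cox17, Klf2 and the probe NAP050809-1 stood at -3.42, -3.38 and -2.73, but with unlike ratios on the passage 3 arrays (-2.82 and -0.07, -2.49 and -0.49, -2.31 and -0.13). Other probes of Cox17 and Klf2 read -0.24 and 0.60 at passage 3. Of the lists, the median difference was -0.25 for glycolysis and hypoxia genes, 0.083 for melanocyte markers and 0.10 for EGF receptor ligands and growth factors.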

How the results depend on the processing

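The count of probes past limma's threshold was 0 at passage 3 under all 13 fits, the replicate block that pairs the arrays included, and 0 in the difference between passages under the 12 that give it. The replicate block changed no call, and the late arrays alone and each left-out array also gave 0. Probes past 2-fold on both late arrays, 31 higher and 27 lower, were 97 and 48 with a background offset of 0, 11 and 184 with median centring in place of loess, and 185 and 111 with the scanner's log ratios. No count on both arrays exists when a late array is left out. Of 131 named genes past 1.5-fold on both late arrays, 0 changed sign under any alternative that measured them. Of 327 named genes with the same sign on both, 28 changed sign under median centring, 6 with the mean of all probes and 1 with the scanner's ratios. Leaving out an array, the replicate block and the late arrays alone could not change a sign. The reason is that these genes were picked for the same sign on both late arrays.

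Under median centring, list medians turned to -0.24 for lysosomal, -0.10 for melanocyte, -0.38 for keratinocyte basal, -0.095 for channel and tight junction, -0.14 for mesenchymal, -0.013 for TGF-beta, -0.12 for EGF receptor ligand, -0.051 for MHC, -0.16 for death receptor, -0.21 for Bcl2 family, -0.064 for Toll-like receptor, -0.18 for AP-1, -0.23 for cholesterol and -0.31 for glutathione genes. Besides the medians given with the lists, stress keratin genes went from -0.28 to -0.77 and suprabasal genes from -0.08 to -0.42. Simple keratins went from -0.07 to -0.52, stefins from -0.16 to -0.30, defensins from -0.16 to -0.27 and barrier lipid genes from -0.11 to -0.32. The Cdk inhibitor list, at -0.00036, was 0.0057 without background subtraction and 0.011 with the scanner's ratios. With an array left out, medians ranged from -0.044 to 0.0033 for neutrophil, from -0.17 to 0.018 for barrier lipid, from -0.00036 to 0.029 for Cdk inhibitor, from -0.032 to 0.062 for glutathione, from -0.0028 to 0.034 for death receptor and from -0.12 to 0.0058 for sex-linked genes. The cause of these shifts was not tested. The median of the macrophage markers was 0.52 at the offset of 50 and 1.04 at an offset of 0.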
